A study of Rattus norvegicus with 3 samples.

Results

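Purkinje cell genes and the genes that mark the zebrin stripes of the cerebellum were examined in 3 arrays of rat cerebellar cortex. The list held 9 genes. Pcp2, Calb1, Car8, Ppp1r17, Rora and Pvalb were taken as general Purkinje genes, Aldoc and Plcb3 as zebrin-positive genes and Plcb4 as the zebrin-negative gene. A gene was included when the accession of a probe matched its rat RefSeq symbol, and 8 of the 9 genes had such a probe, among 38973 genes on the array, counting each of 22319 accessions without a symbol as a gene of its own. No probe was matched to Rora, so that its expression was not analysed here and only its promoter was searched. The 8 genes were read by 11 probes and 40 of the 58717 spots on each array.

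All animals were male Wistar rats at 9 weeks of age. Rats of the MCAO group underwent transient occlusion of the right middle cerebral artery, and the control group received sham surgery. Tissue was taken 2 days later from the left cerebellar cortex (contralateral to the infarct) and the right cerebellar cortex (ipsilateral) of the MCAO group, and from the left side alone in the control group. The tissue of 4 rats was combined before RNA extraction for each array, both MCAO arrays came from the 4 rats of that group by the deposited design, and there was 1 array per group. The spread between rats is therefore unknown, and no test was made.

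Purkinje cells are the GABAergic output neurons of the cerebellar cortex. They receive glutamatergic input from climbing fibers of the inferior olive and from parallel fibers of granule cells, and parallel fiber input is coupled through the metabotropic receptor mGluR1 and Gq proteins to phospholipase C beta. Aldolase C, the antigen known as zebrin II, is present in some Purkinje cells and nearly absent in others, which gives parasagittal stripes; phospholipase C beta 3 is enriched in the zebrin-positive stripes and phospholipase C beta 4 in the zebrin-negative ones.

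The signal of each spot was expressed on the log2 scale after the arrays had been shifted to a common 75th percentile, and this is called the scaled log2 signal. All 11 probes were well above background on all 3 arrays, and none was saturated. All 10 listed genes of granule cells, the most numerous neurons of this tissue, were also well above background on all arrays. The error of each log2 ratio combined the spot errors that the scanner software gave on both arrays, and was about 0.20 for these genes. It was averaged over spots and probes and not reduced for their number, at 0.204 for Pcp2 with 9 spots and Ppp1r17 with 1. This scanner error is therefore nearly constant for bright genes and not a measured spread of each gene, and it covers neither rats nor hybridisations. Repeated spots of a probe varied less, with a median SD of 0.046 to 0.047 on each array over 2258 repeated probes. Such spots share 1 RNA sample and are not replicates of a condition. The share of all repeated probes whose spots did not overlap between arrays was not counted, so that a lack of overlap cannot be read as rare.

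None of the 8 genes differed from control by a log2 ratio beyond 0.5 on either side. In the contralateral cortex the ratios ran from -0.036 to 0.27, with a median of 0.14, and 7 of the 8 genes had a ratio above 0. In the ipsilateral cortex they ran from -0.039 to 0.44, with a median of 0.12, and again 7 of the 8 genes were above 0. Without scaling between arrays, 3 genes were above 0 in the contralateral and 0 in the ipsilateral cortex, and with scaling to spike-in probes the numbers were 6 and 3. In these settings the median of all measured genes moved as well, to -0.14 and -0.50 without scaling and -0.072 and -0.22 with spike-in probes. In both settings, 7 and 6 of the 8 genes stood above that median. The counts at the main scaling were set against the 22085 genes whose probes were all well above background, 11250 of them with a symbol. Of these, 10.6% were beyond 0.5 in the contralateral cortex, 2.26% beyond 1, the threshold in the methods of the study, and 52.4% above 0. In the ipsilateral cortex 14.3% were beyond 0.5, 3.89% beyond 1 and 55.9% above 0. The median ratio over the 22085 genes was 0.012 in the contralateral and 0.030 in the ipsilateral cortex. Both comparisons use the same control array, so that any deviation of that array enters both sides.

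**Figure D1:**
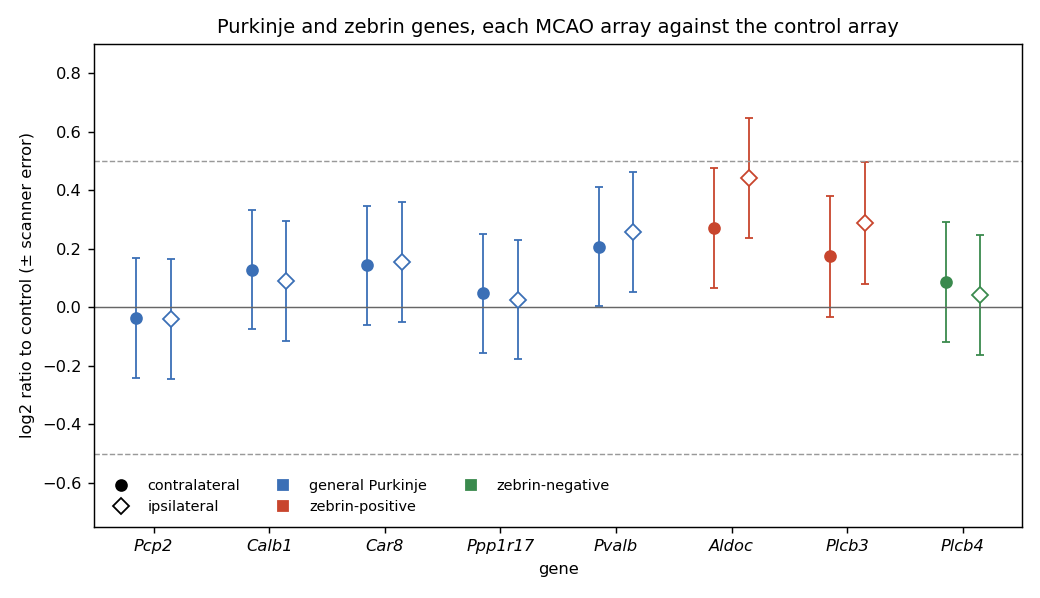
Log2 ratio to control of each of the 8 genes in the contralateral (filled circles) and ipsilateral (open diamonds) cerebellar cortex; bars give the scanner error and dashed lines a log2 ratio of 0.5 in either direction. All points lie between the dashed lines, from -0.039 for Pcp2 to 0.44 for Aldoc. The ipsilateral values of all 8 genes were below 0 without scaling between arrays, where the median of all measured genes was -0.50.

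Among the general Purkinje genes, Pcp2 was the only gene with a ratio below 0 at the main scaling. Without scaling every one of them was below 0 in the ipsilateral cortex, and with quantile normalization Car8 was at -0.0070 and -0.083. Pcp2 encodes a regulator of G protein signaling found in Purkinje cells and retinal bipolar cells. Its scaled log2 signal was 15.34 in the contralateral cortex, 15.34 in the ipsilateral cortex and 15.38 in the control cortex. The ratios to control were -0.036 and -0.039, well inside the scanner error of 0.20. The 9 usable spots spanned 15.27 to 15.38, 15.25 to 15.39 and 15.33 to 15.42 on the contralateral, ipsilateral and control arrays, so that the arrays overlapped. Without scaling between arrays they were -0.19 and -0.57, and with spike-in scaling -0.12 and -0.29. Relative to the median of all measured genes, which a shift between arrays cannot alter, Pcp2 stood at -0.049 and -0.069, and the other alternatives gave values down to -0.17 and -0.20. In bulk tissue, fewer Purkinje cells and less RNA per cell cannot be told apart.

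The promoter of Pcp2 is shown because it alone, of the 7 promoters found for the list, held AGGTCA, the core sequence bound by the orphan receptors of the Rora family. The promoter of Rora was among the 7, and none was found for Calb1 or Car8. Promoters were taken from the RefSeq annotation of the GRCr8 assembly, as 250 bases before to 50 bases after the start of the gene, and both strands were searched. The core was present in 16.2% of all 33469 promoters of this length. The window of Pcp2 lies at chr12:6481258-6481557 on the minus strand of GRCr8 and is written 5′ to 3′, with the core in capitals.
Pcp2: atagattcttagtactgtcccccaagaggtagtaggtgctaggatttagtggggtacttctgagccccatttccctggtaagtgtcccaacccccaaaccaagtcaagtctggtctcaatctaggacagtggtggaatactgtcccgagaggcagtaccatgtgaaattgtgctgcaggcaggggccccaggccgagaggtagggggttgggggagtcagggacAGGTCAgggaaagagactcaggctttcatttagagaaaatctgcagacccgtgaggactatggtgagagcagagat
The core began 26 bases before the start of the gene, and the window held no GC box. A match of letters is not evidence of binding.

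Calbindin 1, a calcium buffer of Purkinje cells encoded by Calb1, was read by 1 spot. The scaled log2 signal was 11.87 in the contralateral, 11.83 in the ipsilateral and 11.74 in the control cortex. The ratios of 0.13 and 0.090 were both smaller than the scanner error. Car8 encodes a protein related to carbonic anhydrases that binds the inositol trisphosphate receptor. Its signals were 15.74, 15.75 and 15.60 in the contralateral, ipsilateral and control cortex. The contralateral ratio was 0.14 and the ipsilateral ratio 0.15, again within the scanner error of 0.20. At the main scaling its contralateral spots (15.71 and 15.77) and ipsilateral spots (15.76 and 15.74) lay above its control spots (15.57 and 15.62). Ppp1r17, which encodes a substrate of cGMP-dependent protein kinase, gave signals of 12.20, 12.18 and 12.15 in the same order. Its ratios of 0.048 and 0.027 were close to the medians of all measured genes. Against the scanner error, the order of the 3 arrays was thus not resolved for Pcp2, Calb1, Car8 or Ppp1r17.

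Pvalb was the general Purkinje gene with the highest ratios. It encodes parvalbumin, a calcium buffer shared by Purkinje cells and the basket and stellate cells of the molecular layer. The scaled log2 signal was 15.39 in the contralateral, 15.44 in the ipsilateral and 15.18 in the control cortex. The contralateral ratio of 0.21 barely passed the scanner error of 0.20, and the ipsilateral ratio was 0.26, corresponding to signals 15.4% and 19.6% above control. The 2 probes of Pvalb gave nearly equal ratios, with 0.21 and 0.20 in the contralateral and 0.25 and 0.26 in the ipsilateral cortex. On the probe with 10 spots, the control spots ranged from 16.18 to 16.31 and did not overlap the contralateral spots, at 16.35 to 16.52, or the ipsilateral spots, at 16.43 to 16.58. Both ratios depended on the scaling. The contralateral ratio was 0.16 with the deposited values, 0.12 with spike-in scaling and 0.055 without scaling, and the ipsilateral ratio was 0.0080 with spike-in scaling and -0.28 without scaling. The excess of Pvalb over the median of all measured genes, 0.19 and 0.23, cannot be altered by a shift between arrays, and the other alternatives gave values down to 0.13 and 0.12. The 6 measured genes listed for molecular layer interneurons had a median ratio of 0.14 in the contralateral and 0.068 in the ipsilateral cortex. Gad1, Gad2 and Slc32a1 of this list are genes of GABAergic neurons, which include Purkinje cells, so that it does not stand for interneurons alone. The summed scaled signal of the 6 genes was 4439, 4314 and 4076 in the contralateral, ipsilateral and control cortex. Gad1 was the brightest of them, with ratios of 0.063 and 0.095. The part of interneurons in the ratio of Pvalb was not tested.

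**Figure D2:**
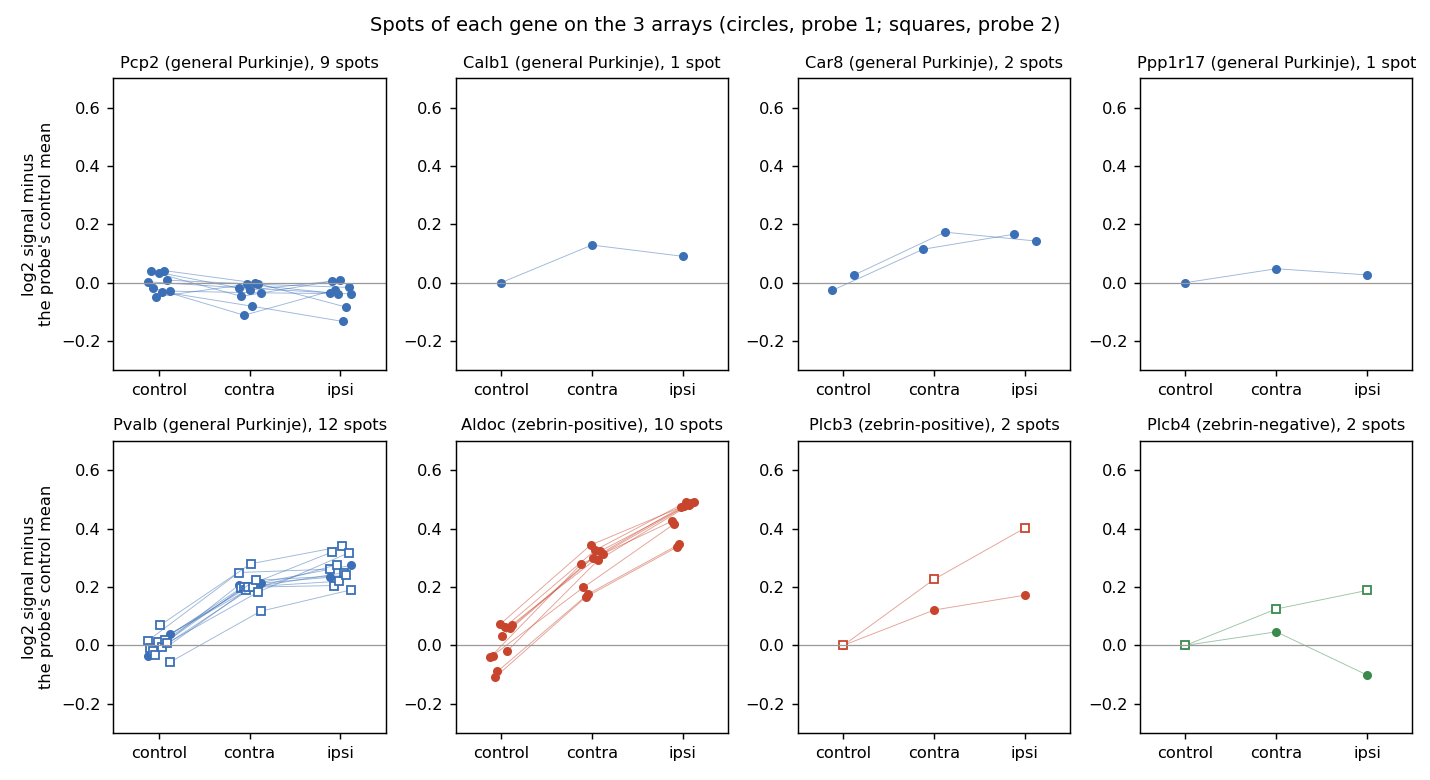
Scaled log2 signal of every usable spot of the 8 genes on the control, contralateral and ipsilateral arrays, after subtraction of the mean of the probe on the control array; lines join a spot across arrays, and squares mark the second probe of a gene. The spots of Aldoc and Pvalb lie above their control spots on both MCAO arrays, as do those of Car8, Plcb3, Calb1 and Ppp1r17. Calb1, Ppp1r17 and each probe of Plcb3 have 1 spot, so that for them this only restates a ratio above 0. The share of all probes with spots above control was not counted. Those of Pcp2 overlap, and the probes of Plcb4 part on the ipsilateral array, at -0.10 and 0.19. Without scaling between arrays the ipsilateral values of all 8 genes were below 0, and the median of all measured genes was -0.50.

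At the main scaling the zebrin-positive genes gave the highest ipsilateral ratios of the list. Aldoc encodes aldolase C, a glycolytic enzyme that is also abundant in astrocytes. Its scaled log2 signal was 17.80 in the contralateral cortex, 17.97 in the ipsilateral cortex and 17.53 in the control cortex. The ratio was 0.27 in the contralateral and 0.44 in the ipsilateral cortex, or signals 20.7% and 35.9% above control, and both passed the scanner error of 0.20 at the main scaling. With spike-in scaling they were 0.19 and 0.19, both within that error. The 10 spots gave ratios from 0.23 to 0.32 in the contralateral and from 0.40 to 0.50 in the ipsilateral cortex. No control spot, at 17.42 to 17.60, reached the lowest contralateral spot, at 17.69, while the contralateral and ipsilateral spots met at 17.87 and 17.86. The ratios of Aldoc depended on the normalization. With quantile normalization they were 0.015 and 0.0073, with normexp followed by quantile normalization 0.036 and 0.020, and without scaling 0.12 and -0.091. With quantile normalization the ipsilateral ratio of Aldoc was below those of Pvalb, at 0.13, Calb1, at 0.063, and Plcb4, at 0.053.

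Plcb3 encodes phospholipase C beta 3 and was read by 2 probes of 1 spot each. The scaled log2 signal of the gene was 7.69 in the contralateral, 7.80 in the ipsilateral and 7.52 in the control cortex. The contralateral ratio of 0.17 was within the scanner error of 0.21, and the ipsilateral ratio of 0.29 passed it. The probes differed in size but not in sign, with 0.12 and 0.23 in the contralateral and 0.17 and 0.40 in the ipsilateral cortex. The ipsilateral ratio was 0.037 with spike-in scaling and -0.25 without scaling, and the contralateral ratio 0.089 and 0.022. The excess of Plcb3 over the median of all measured genes, 0.16 and 0.26, is again untouched by a shift between arrays, and ranged from 0.11 to 0.21 and from 0.22 to 0.37 with the other alternatives.

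Plcb4, the zebrin-negative gene, encodes phospholipase C beta 4. The scaled log2 signal was 9.16 in the contralateral, 9.12 in the ipsilateral and 9.07 in the control cortex. The ratios of 0.086 and 0.043 were smaller than the scanner error. The 2 probes, of 1 spot each, gave 0.046 and 0.12 in the contralateral cortex. In the ipsilateral cortex they gave -0.10 and 0.19, so that the direction for Plcb4 depended on the probe.

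The promoters of Aldoc, Plcb3 and Plcb4 are shown to set the zebrin-positive genes beside the zebrin-negative gene. Capitals mark GC boxes, searched as GGGCGG on both strands, which 33.1% of all promoters and 5 of the 7 promoters of the list held, that of Rora among them. The windows lie at chr10:63715294-63715593 on the plus strand for Aldoc, chr1:213589386-213589685 on the minus strand for Plcb3 and chr3:143405723-143406022 on the plus strand for Plcb4, all in GRCr8.
Aldoc: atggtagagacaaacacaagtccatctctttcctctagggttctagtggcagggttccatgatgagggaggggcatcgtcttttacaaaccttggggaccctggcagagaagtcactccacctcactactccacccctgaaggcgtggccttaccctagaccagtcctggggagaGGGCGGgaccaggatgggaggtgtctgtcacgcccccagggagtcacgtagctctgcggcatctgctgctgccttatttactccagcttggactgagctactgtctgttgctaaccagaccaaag
Plcb3: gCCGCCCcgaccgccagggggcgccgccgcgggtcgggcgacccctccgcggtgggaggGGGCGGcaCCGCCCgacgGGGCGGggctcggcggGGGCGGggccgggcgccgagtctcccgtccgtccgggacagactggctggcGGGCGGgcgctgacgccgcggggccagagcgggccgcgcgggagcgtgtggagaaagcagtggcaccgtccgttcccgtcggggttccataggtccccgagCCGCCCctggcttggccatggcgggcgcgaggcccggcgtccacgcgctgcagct
Plcb4: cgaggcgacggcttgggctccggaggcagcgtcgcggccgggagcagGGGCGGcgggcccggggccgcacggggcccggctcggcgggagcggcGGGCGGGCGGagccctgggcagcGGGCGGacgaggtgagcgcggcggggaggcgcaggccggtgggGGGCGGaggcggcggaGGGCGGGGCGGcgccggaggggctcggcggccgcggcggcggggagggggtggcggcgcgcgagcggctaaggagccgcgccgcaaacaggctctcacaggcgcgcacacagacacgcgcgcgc
Aldoc had 1 GC box, and Plcb3 and Plcb4 had 7 each. The GC content was 56.0% for Aldoc, 81.3% for Plcb3 and 84.3% for Plcb4, against a median of 51.7% over all promoters. Plcb3 and Plcb4, which differ in stripe, were thus alike in these features, and Aldoc was not; AGGTCA was in none of the 3 windows.

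The zebrin classes were then compared within each pair of arrays, since a difference between ratios does not change with a shift between arrays. In the contralateral cortex, the mean ratio of Aldoc and Plcb3 exceeded that of Plcb4 by 0.14, less than the scanner error of 0.25. In the ipsilateral cortex the excess was 0.32, or 1.28 times the scanner error, but with the further zebrin genes added, 6 positive and 2 negative, the mean difference was 0.18, against a scanner error of 0.18 for that number of genes, and the difference between medians was 0.19. The contralateral value became -0.027 with normexp and quantile normalization, and the ipsilateral value ranged from 0.10 to 0.52 over all alternatives tried, the latter with the brighter probe of each gene. With quantile normalization, alone or after normexp, Aldoc could hardly show a ratio. Without Aldoc, the excess of Plcb3 over Plcb4 was 0.088 in the contralateral and 0.24 in the ipsilateral cortex, both within the error of 0.29 for 1 gene against 1.

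The median ratio of the 5 general Purkinje genes was 0.13 in the contralateral and 0.090 in the ipsilateral cortex. The error of a median over 5 genes was not computed, and that of a single gene is 0.20. The contralateral median was -0.023 without scaling. The ipsilateral median became -0.44 when the arrays were not scaled, -0.16 after scaling to spike-in probes and -0.0063 after quantile normalization. Aldoc and Plcb3 exceeded the general Purkinje median by 0.094 in the contralateral cortex, within an error of 0.25 that counts the median as a single gene. In the ipsilateral cortex they exceeded it by 0.27, which is 1.09 times this error. These 2 differences also cannot change with a shift between arrays, and the other alternatives gave 0.026 to 0.13 and 0.12 to 0.33. The alternatives for this difference were all picked post hoc.

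The ratios were also set against the brightness of the spots. Over all measured genes, the median ratio was higher in brighter bins above a scaled log2 signal of 8, reaching 0.11 in the contralateral and 0.16 in the ipsilateral cortex for the 167 genes between 15 and 16. That bin held Pcp2, Car8 and Pvalb. Genes were binned by the mean over their probes, and both probes of Pvalb lay outside it, at 14.12 and 16.24 in control. The probes of Plcb3 and Plcb4 likewise lay outside the bins of these genes. Among dim genes the ipsilateral median was again above 0, at 0.26 between 4 and 5 and 0.082 between 5 and 6. The contralateral medians there were -0.041 and -0.031. For the 13 genes above 17, which include Aldoc, the medians were 0.22 and 0.37, and all 13 had a ratio above 0 on both sides at the main scaling. Aldoc ranked 1, 2 and 1 by signal among 38973 genes on the contralateral, ipsilateral and control arrays, a rank of spots and not of RNA amounts. After subtraction of the median of its bin, Aldoc stood at 0.053 in the contralateral and 0.069 in the ipsilateral cortex. Of the 12 other genes of that bin, 1 had a higher contralateral and 4 a higher ipsilateral ratio than Aldoc. In the same way Pvalb stood at 0.098 and 0.099, and Car8 at 0.035 and -0.0041. Pcp2 was below the median of its bin, at -0.15 and -0.20, though not the lowest gene there. Plcb3 lay in a dimmer bin with medians of -0.016 and -0.019, and kept 0.19 and 0.31. With these medians removed, the excess of zebrin-positive over zebrin-negative genes was 0.053 in the contralateral and 0.14 in the ipsilateral cortex. The bins were chosen after the data had been seen, and the cause of the dependence on brightness was not tested.

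**Figure D3:**
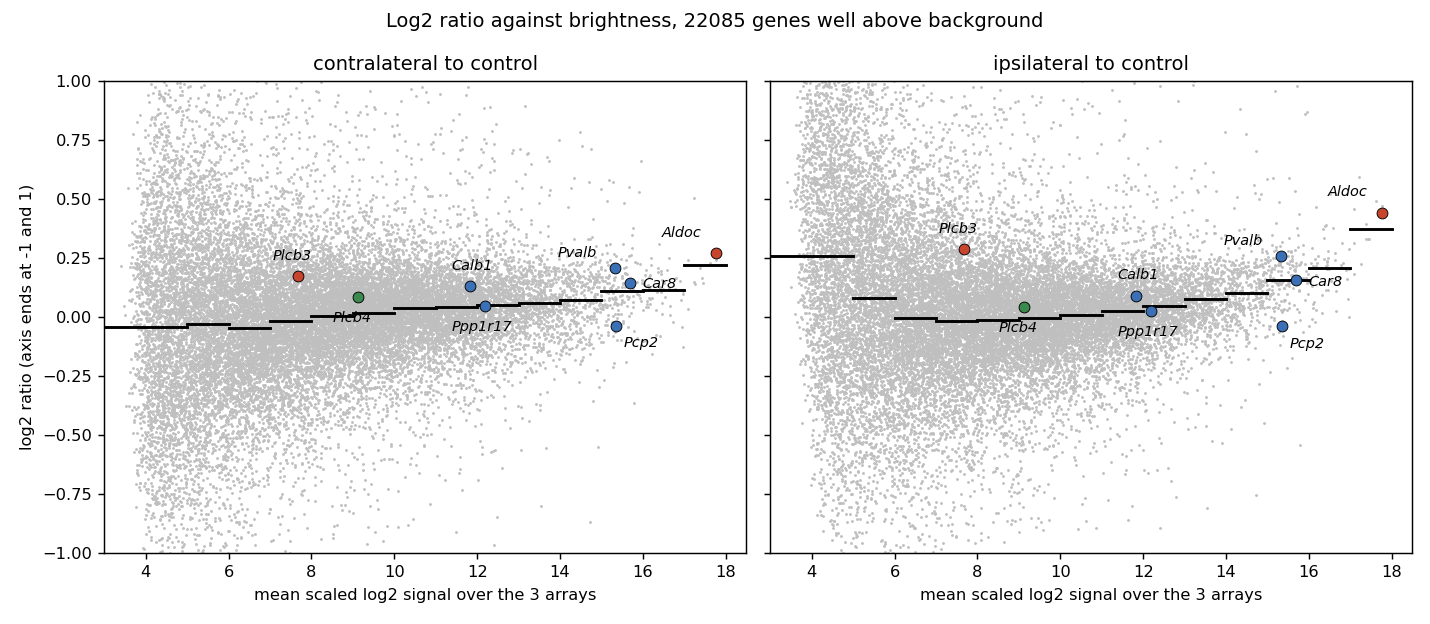
Log2 ratio to control (vertical axis) against the mean scaled log2 signal over the 3 arrays (horizontal axis) for the 22085 measured genes (grey) in the contralateral and ipsilateral cortex, with the median of each bin of 1 log2 unit (black lines) and the 8 genes in color (blue, general Purkinje; red, zebrin-positive; green, zebrin-negative). Aldoc lies above the median of the brightest bin (0.22 and 0.37), as does Plcb3 in its bin, and Pcp2 lies below the median of its own; some grey points lie beyond the axis.

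When the contralateral side was compared with the ipsilateral side of the same rats, 4 of the 8 genes had a ratio above 0, and none passed its scanner error. The share of all measured genes that passed theirs was not counted. Their quartiles were -0.13 and 0.077, so that a ratio this small was common. Of all measured genes, 47% were above 0, 8.04% beyond 0.5 and 1.76% beyond 1. The lowest ratios were those of the zebrin-positive genes, at -0.17 for Aldoc and -0.11 for Plcb3. The other members lay between -0.051 for Pvalb and 0.042 for Plcb4, with a median over all 8 genes of -0.0039. The mean of Aldoc and Plcb3 stood at -0.18 relative to Plcb4 and at -0.14 relative to the general Purkinje median, each within the scanner error of 0.25. With the bin medians removed, these differences were -0.078 and -0.083. Aldoc was the median gene of its own brightness bin, with 6 of the 12 other genes above it, so that its value there was 0 by construction. The general Purkinje median was 0.0028 at the main scaling, 0.17 with spike-in scaling and 0.38 without scaling. The ratios of 7 of the 8 genes were above 0 with spike-in scaling and those of all 8 without scaling. The median of all measured genes was then 0.16 and 0.37, whereas the share of 47% holds for the main scaling. With the further zebrin genes added the difference between the zebrin classes was -0.088 by means and 0.021 by medians. The mean includes Sphk1, read by 1 dim spot, at -0.92, whereas Slc1a6, Gabbr2 and Ncs1 lay between -0.0092 and 0.17.

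Further genes were drawn from lists of the same cells and pathway. Of 13 measured other Purkinje genes, 11 had a contralateral and 9 an ipsilateral ratio above 0, the medians were 0.19 and 0.094, and none was beyond 0.5. Over all measured genes, 52.4% and 55.9% were above 0 and 10.6% and 14.3% beyond 0.5. Bright genes were more often above 0, as were 142 and 148 of the 167 genes between 15 and 16. Itpr1, the inositol trisphosphate receptor of these cells and the brightest gene of that list, had ratios of 0.22 and 0.16. In the mGluR1 cascade, which leads from the receptor to phospholipase C beta and calcium release, 11 genes were measured, Plcb3 and Plcb4 among them, with medians of 0.086 and 0.043. Its members ranged from -0.38 for Plcb1 to 0.22 for Itpr1 in the contralateral cortex, and from -0.46 for Gnaq to 0.29 for Plcb3 in the ipsilateral cortex. Of the other phospholipase C beta genes, Plcb2 was not well above background on all arrays, and the 3 probes of Plcb1 gave -0.90, -0.10 and -0.14 in the contralateral cortex. The 4 other zebrin-positive genes Slc1a6, Gabbr2, Ncs1 and Sphk1 had medians of -0.013 and 0.018, with values on either side of 0 in both cortices. Slc1a6, the glutamate transporter of zebrin-positive Purkinje cells, had ratios of -0.057 and -0.077. Ebf2, a transcription factor of zebrin-negative Purkinje cells, had -0.24 and -0.029, with probes that disagreed in the contralateral cortex, at 0.11 and -0.58.

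Since astrocytes also express Aldoc, their genes are given beside it. The 11 genes of astrocytes and Bergmann glia had median ratios of 0.00026 in the contralateral and -0.0018 in the ipsilateral cortex, with 2 genes above 0.5 on each side and 3 and 2 below -0.5. The summed scaled signal was 92016, 92179 and 96324 in the contralateral, ipsilateral and control cortex, and Aqp4, the brightest of them on the control array, had ratios of -0.55 and -0.45. S100b was the brightest on both MCAO arrays, with ratios of 0.17 and 0.12. Gfap had -0.73 and -0.66 and Fabp7 -0.79 and -0.89, whereas Gjb6 had 0.71 and 0.72, Glul 0.58 and 0.53 and Gdf10 0.39 and 0.27. The part of glia in the ratios of Aldoc was not tested. The 10 granule cell genes had medians of -0.081 and -0.079, and 7 general reference genes had medians of 0.017 and 0.057. Of the measured genes of brainstem and deep nuclei, Slc17a6 had -0.022 and -0.53 and Spp1 -0.20 and -0.50. Of the measured forebrain genes, Nrgn had 1.83 and -0.21, while Neurod2 and Neurod6 lay between -0.054 and 0.056. The part of such tissue in the other ratios was not tested.

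**Figure D4:**
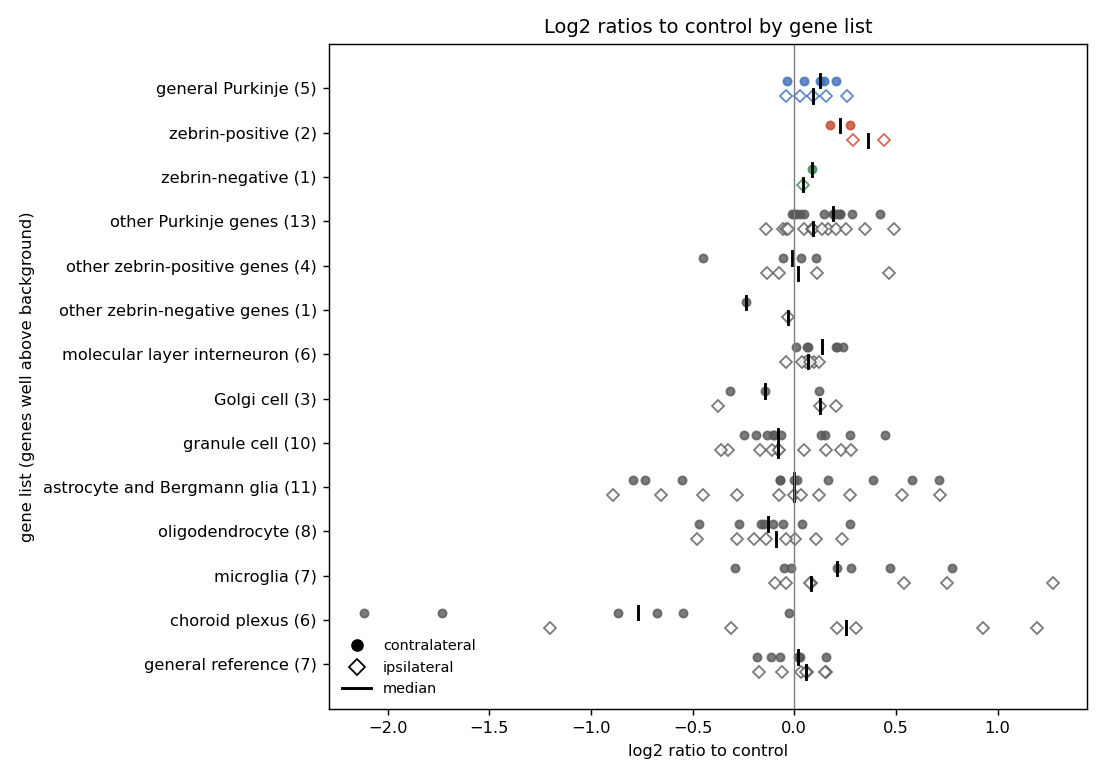
Log2 ratio to control of each measured gene by list in the contralateral (filled circles) and ipsilateral (open diamonds) cortex; the number of genes is in parentheses and black ticks are medians. The 8 Purkinje and zebrin genes of the main list lie between -0.039 and 0.44, and the other Purkinje genes between -0.14 and 0.49, while choroid plexus genes spread from -2.12 to 1.19.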

How the data were processed

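Labelled RNA was hybridised by the authors to Agilent arrays of 1 colour. The deposited intensity per spot was quantified with Agilent Feature Extraction 12.1.0.3, with its background subtracted and without scaling between arrays. A deposited table of intensity values, equal to these signals times 1.12 (contralateral), 1.45 (ipsilateral) and 1.04 (control), served as an alternative. The arrays lay on 1 slide and were scanned together.

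Signals were converted to log2 and shifted to a common 75th percentile. The percentile before the shift was 2103, 1614 and 2336 in the same order, and 42470, 43028 and 43283 of 58717 spots were well above background. Outlier spots (759, with 1 of Pcp2) were left out, and spots of a probe, then probes of a gene, were averaged. Symbols came from the RefSeq table of GRCr8, in which 17622 of 39957 accessions were found. Ratios beyond 1, as in the study's methods, and beyond 0.5 were counted. With 1 array per group the number of arrays limits the precision, and no p-value was computed. The members and lists were chosen with earlier results of these data known. All members were named, and other genes came from the lists. The calculations were tested on simulated data in Python 3.11.15, with limma 3.58.1 for normexp and quantile normalization.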

Additional observations from a re-analysis of the deposited data

Results flagged for a closer look

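Among the measured genes of the lists, 4 had ratios to control of opposite sign in the contralateral and ipsilateral cortex, each beyond its scanner error, at the main scaling. The share of all measured genes with this pattern was not counted, so that the number 4 cannot be read as high or low. Sphk1, a sphingosine kinase of zebrin-positive Purkinje cells, had log2 ratios of -0.449 and 0.468, read by 1 spot of low signal (4.53, 5.45 and 4.98 in the contralateral, ipsilateral and control cortex). The 2956 measured genes of similar brightness, with a mean signal between 4 and 5, had medians of -0.041 and 0.26. The other flagged genes were choroid plexus genes. Ttr had -1.73 in the contralateral and 1.19 in the ipsilateral cortex, Folr1 had -0.865 and 0.930, and Kcnj13 had -0.675 and 0.210. Without scaling between arrays the ipsilateral ratios of Sphk1 and Kcnj13 were -0.066 and -0.32, and with spike-in scaling that of Kcnj13 was -0.040, so that their signs no longer differed between sides; Ttr and Folr1 kept opposite signs in both cases. With 50 added before log2, and with normexp followed by quantile normalization, the contralateral ratio of Sphk1 was -0.077 and -0.084, inside its scanner error of 0.26 at the main setting. The ipsilateral ratio of Kcnj13 was 0.15 with the deposited values and 0.17 with normexp followed by quantile normalization. Scaling by the spots well above background on all arrays gave 0.18. These values were inside its scanner error of 0.21 at the main setting. The summed scaled signal of the choroid plexus genes was 10662, 76466 and 33889 in the contralateral, ipsilateral and control cortex, and Ttr, by far the brightest of them, made up most of it. Of the other measured choroid plexus genes, Slc4a5 had -2.12 and -1.20, Clic6 -0.55 and -0.31, and Otx2 -0.025 and 0.30. No member of the Purkinje and zebrin list had this pattern, and without the share over all measured genes its absence cannot be read as a trait of the list. With 1 array per group, the difference between sides was not tested, and the part of choroid plexus in the other ratios was not tested.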

How the results depend on the processing

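Without scaling, the median ratio of all measured genes was -0.14, -0.50 and 0.37 for contralateral to control, ipsilateral to control and contralateral to ipsilateral, and with spike-in scaling -0.072, -0.22 and 0.16. The general Purkinje median moved by more than the scanner error of a single gene in 3 cases. The ipsilateral value of 0.090 became -0.44 without scaling and -0.16 with spike-in scaling, and the contralateral to ipsilateral value of 0.0028 became 0.38 without scaling. These moves follow the shift of all genes. The ipsilateral median also changed sign, within that error, to -0.0063 with quantile normalization and to -0.0041 after subtraction of the median of equally bright genes, an alternative chosen after seeing the data, as were those by probe of Plcb3 and Plcb4, the mean with the further zebrin genes and all alternatives of zebrin-positive minus general Purkinje. The contralateral median ranged from -0.023 to 0.16.

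Zebrin-positive minus zebrin-negative ranged from -0.027 to 0.20, from 0.10 to 0.52 and from -0.32 to 0.021 in the 3 comparisons over 20 alternatives each. The value of 0.021, with the further zebrin genes, is a difference between medians; by means it was -0.088. Shifts between arrays cannot change it. Of 288 ratios of members under 12 alternatives, 30 moved by more than the scanner error, 14 of them outside the setting without scaling, and 2 passed 0.5 in size, both without scaling. Quantile normalization assigns equal values to equal ranks, and Aldoc ranked 1, 2 and 1, so that it could hardly show a difference there. With the brightest probe of each gene alone the ipsilateral difference was 0.52, so the choice between bright and dim probes counted although all 11 were well above background.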

Other observations

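Aldoa, the aldolase present in most cells, had log2 ratios of -0.017 in the contralateral and -0.015 in the ipsilateral cortex. Of the other Purkinje genes, Lhx5, a transcription factor of these cells, had the highest ratios, at 0.42 and 0.49, on 1 spot, and Gng13, a G protein gamma subunit, had 0.23 and 0.35 on 10 spots. The 7 microglia genes had medians of 0.21 and 0.083, and their brightest gene, C1qa, had 0.47 and 0.75. In this list 1 gene was above 0.5 in the contralateral and 3 in the ipsilateral cortex, with the highest ratios for Cx3cr1, at 0.78 and 1.27. Aif1, at -0.29 and -0.097, and P2ry12, at -0.014 and -0.040, were below 0 on both sides. The 8 oligodendrocyte genes had medians of -0.13 and -0.090.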
